A study of Homo sapiens with 9 samples.

Results

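The genes examined here encode apolipoproteins, which coat and carry lipid particles outside the cell, and the transfer protein that loads lipid onto APOB. They are *APOA1* (ENSG00000118137), *APOA2* (ENSG00000158874), *APOA4* (ENSG00000110244), *APOB* (ENSG00000084674), *APOC1* (ENSG00000130208), *APOC3* (ENSG00000110245), *APOE* (ENSG00000130203), *APOM* (ENSG00000204444) and *MTTP* (ENSG00000138823). Members were chosen by symbol, and all 9 were found among the 36601 genes listed for both single-cell libraries. The study aggregated human pluripotent stem cells into human extra-embryoids (hEEs), structures in which an inner epiblast-like compartment forms beside an outer hypoblast-like layer. The aggregates began in a medium low in growth factors. Before D4 this was exchanged for a modified medium first reported for human post-implantation embryos. Cells of the human embryonic stem cell line ESI017, wild type, were kept in an expanded potential culture before aggregation. For these structures the paper names no signal modulator beyond a ROCK inhibitor early in aggregation. The structures gave 1 library at day 4 (D4) and 1 at day 6 (D6). Each came from structures that showed the inner and outer organization, pooled over independent experiments. Since there was 1 library per day, day, time in the second medium and library cannot be told apart. No test between days or cell groups was possible. Intervals below are 95% counting intervals, which cover counting error only.

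Levels were read in cells gated on 3 genes that are not members. The hypoblast gate required at least 3 unique molecular identifiers (UMIs, tags that count each captured RNA molecule a single time) of *FN1*, encoding fibronectin, no UMI of *SOX2* and at most 5 of *POU5F1*, which encode core pluripotency factors. The embryonic gate required at least 5 UMIs of *POU5F1*, at least 1 of *SOX2* and at most 2 of *FN1*. Of 9151 kept cells at D4, 4061 (44.4%) fell in the hypoblast gate and 3716 (40.6%) in the embryonic gate, and of 10097 at D6 3567 (35.3%) and 5054 (50.1%) did. Cells of the hypoblast gate had a median of 11012 UMIs at D4 and 10902 at D6, and those of the embryonic gate 15157.5 and 14225.5. Levels are given as a gene's share of the gate's summed UMIs, scaled to a total of 1000000 (CPM). A UMI is counted per molecule from its 3′ end and does not scale with transcript length, so CPM may be compared between genes.

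The gates were checked against markers they did not use. Of 12 hypoblast markers, 10 at D4 and 11 at D6 were at least 2-fold higher in the hypoblast gate, and their summed level there was 1481 CPM at D4 and 1942 CPM at D6, against 170 and 157 CPM in the embryonic gate. Of 10 embryonic markers, 8 were at least 2-fold lower in the hypoblast gate on both days, *LIN28A* and *TDGF1* being the other 2. They still summed to 1003 CPM there at D4 and 969 CPM at D6, against 3608 and 3530 CPM in the embryonic gate. Of 4 primitive streak and mesoderm markers, 3 at D4 and 4 at D6 were at least 2-fold higher in the hypoblast gate. Their sums were 33.3 and 104 CPM there, against 3.55 and 6.94 CPM in the embryonic gate. Trophoblast markers summed to at most 0.0718 CPM in the hypoblast gate, and *ALB*, the liver-cell gene for albumin, reached 0.407 CPM at D6. The 5 amnion markers (*ISL1*, *TFAP2A*, *GABRP*, *DLX5* and *GATA3*) summed to 249.8 CPM in the hypoblast gate at D4 and 229.6 at D6. In the embryonic gate they summed to 17.1 and 27.7 CPM. At D4 3 of them were at least 2-fold higher in the hypoblast gate and 1 lower. At D6 2 were higher and 3 lower, with a median log2 ratio of −1.19. The paper sets GATA3-positive cells, like SOX17-positive ones, apart from SOX2-positive cells, so this sum is no measure of amnion cells. The 2 libraries shared 40 cell barcodes as deposited and 27 among kept cells.

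APOA1 and APOA2 are structural proteins of high-density lipoprotein, APOA1 being the main one. APOB forms the scaffold of the larger particles that export triglyceride. MTTP, the large subunit of the microsomal triglyceride transfer protein, lipidates APOB in the endoplasmic reticulum, while APOC proteins and APOE move between particles and govern their lipolysis and uptake. The visceral endoderm of the yolk sac, a derivative of the hypoblast, makes these proteins before the liver does and passes maternal lipid on to the embryo.

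The members sit on 6 chromosomes, by RefSeq annotation of GRCh38.p14, and 2 groups of them are neighbours. *APOA4* (chr11:116820700-116823304), *APOC3* (chr11:116829907-116833072) and *APOA1* (chr11:116835751-116837622) lie in a cluster with gaps of 6602 and 2678 bases, and *APOE* (chr19:44905796-44909393) and *APOC1* (chr19:44914325-44919346) lie 4931 bases apart. *APOA2* is at chr1:161222292-161223628, *APOB* at chr2:21001429-21044073, *MTTP* at chr4:99564130-99623997 and *APOM* at chr6:31652404-31658210. Promoter sequence (250 bases before to 50 after an annotated start) was at hand for 6 of the 9, and *APOA1*, *APOB* and *APOC3* are named only. Shown are *APOA2* and *MTTP*, each with a promoter that held more than 1 match to the motifs searched. Also shown are *APOA4* and *APOE*, which had the largest and the smallest D6 to D4 ratio in the hypoblast gate among members with such sequence. Capitals mark matches to the motifs searched, and the start site is base 251 of each.
APOA2 (chr1:161223579-161223878, minus strand): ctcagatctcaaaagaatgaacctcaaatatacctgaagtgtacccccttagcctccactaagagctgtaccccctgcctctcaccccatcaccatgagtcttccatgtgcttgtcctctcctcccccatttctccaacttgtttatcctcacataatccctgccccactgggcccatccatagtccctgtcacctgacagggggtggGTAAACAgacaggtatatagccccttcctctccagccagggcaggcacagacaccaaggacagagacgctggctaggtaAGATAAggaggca
MTTP (chr4:99574574-99574873, plus strand): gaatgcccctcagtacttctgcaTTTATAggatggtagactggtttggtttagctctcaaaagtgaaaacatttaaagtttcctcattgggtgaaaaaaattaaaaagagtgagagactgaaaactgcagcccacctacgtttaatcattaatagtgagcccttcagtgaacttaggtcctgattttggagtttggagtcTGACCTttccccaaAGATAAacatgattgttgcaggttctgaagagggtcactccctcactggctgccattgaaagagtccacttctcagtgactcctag
APOA4 (chr11:116823255-116823554, minus strand): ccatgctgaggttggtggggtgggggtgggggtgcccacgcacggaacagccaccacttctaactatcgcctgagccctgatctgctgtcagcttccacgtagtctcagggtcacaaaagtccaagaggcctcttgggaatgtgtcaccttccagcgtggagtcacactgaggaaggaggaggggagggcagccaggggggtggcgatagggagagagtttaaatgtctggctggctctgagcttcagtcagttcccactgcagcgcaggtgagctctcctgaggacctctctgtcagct
APOE (chr19:44905546-44905845, plus strand): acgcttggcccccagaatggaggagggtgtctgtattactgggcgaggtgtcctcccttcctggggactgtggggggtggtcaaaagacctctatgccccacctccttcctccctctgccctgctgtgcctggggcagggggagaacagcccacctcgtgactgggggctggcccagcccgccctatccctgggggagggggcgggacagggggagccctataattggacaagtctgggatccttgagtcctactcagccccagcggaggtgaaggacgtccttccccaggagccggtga
Of 5 motifs searched, 1 had no match in the promoters of the members and is not reported here. The other 4 were AGATAA of GATA factors, TGTTTAC of forkhead factors, AGGTCA of nuclear receptors and TATAAA of the TATA box, each on both strands. Over 35116 RefSeq promoters of the same length they matched in 10.3%, 3.42%, 13.8% and 11.5%. The *APOA2* promoter held a forkhead match 42 bases upstream of the start and a GATA match 37 bases downstream. The *MTTP* promoter shown, the downstream of its 2 starts listed, held a TATA box match 227 bases, a nuclear receptor match 50 bases and a GATA match 36 bases upstream. The upstream *MTTP* start listed held no match, and another *APOE* start, not shown, held a GATA match 8 bases downstream. The promoters of *APOM* and *APOC1*, not shown, held no match. In *APOA4* and in the *APOE* start shown these letters were not found, and no matches shown overlap each other. A match is a description and no bound site, and the 3′ counts do not tell which start was used.

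The first comparison asks in which compartment the members were high. All but *APOM* stood at least 2-fold higher in the hypoblast gate at D4 (8 of 9), and all 9 did at D6. Of all genes with at least 10 UMIs, 15.1% did so at D4 and 14.7% at D6. None of the 9 was at least 2-fold lower, against 16.1% and 21.4% of all genes. The median log2 ratio of the members was 4.30 at D4 and 6.07 at D6, against −0.05 and −0.17 over all genes. The latter shift was small beside every member's ratio at D6. The D4 median was the value of *APOC3* with 0.5 counts added to each gate. *APOC3* then had 0.502 CPM in the hypoblast gate and 0.0173 CPM in the embryonic gate, from very few UMIs. Without the added counts its ratio was 4.86. The medians of the 2 days are therefore not read as a change. With *SOX17* in place of *FN1* as the gate gene, 7 of 9 passed at D4, *MTTP* being at 0.99, and the log2 ratio of *APOA1* was 4.91 at D4 and 5.32 at D6. The study itself used *APOA1* and *APOA2* among the genes that name its hypoblast-like cells. It named *APOE* among the genes that split the embryonic and extra-embryonic compartments. The height of these 3 in the hypoblast gate is therefore not independent evidence. The paper also lists *APOA2* among yolk sac endoderm genes emerging by D6, together with *AFP* and *TTR*, which serve as markers below.

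**Figure D1:**
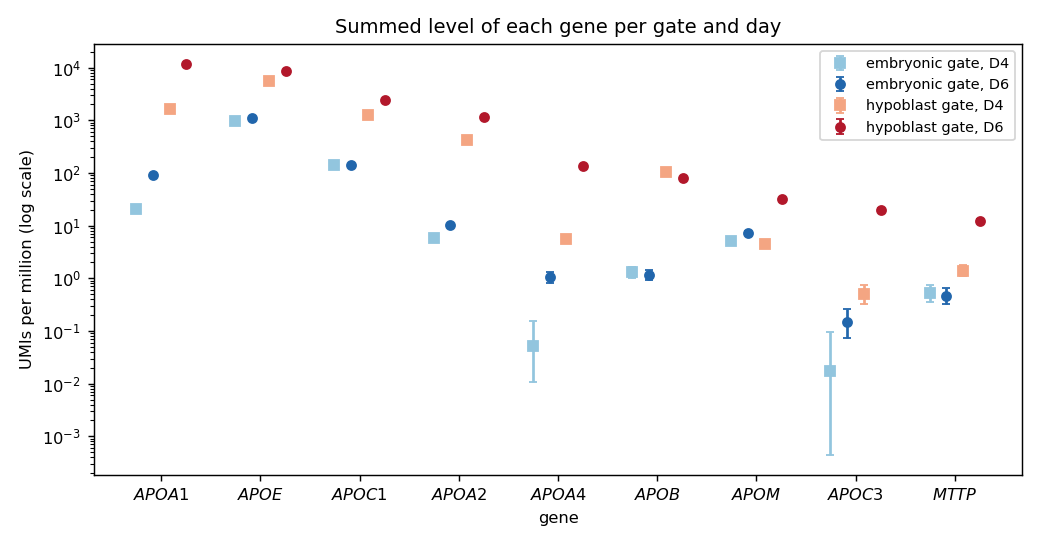
Level of each of the 9 members (CPM, log axis) in the embryonic and hypoblast gates at D4 and D6, with 95% counting intervals. *APOA1* goes from 1621 to 11926 CPM in the hypoblast gate and *APOE* is high in both gates.

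*APOA1*, the main protein of high-density lipoprotein and activator of the enzyme that esterifies its cholesterol, had 1621 CPM [1609, 1632] in the hypoblast gate at D4. At D6 it had 11926 [11893, 11959]. The embryonic gate gave 20.8 CPM [19.6, 22.0] and 89.6 [87.5, 91.8]. The log2 ratio between the gates was 6.28 [6.20, 6.37] at D4 and 7.06 [7.02, 7.09] at D6. By rank among all genes with a UMI in the hypoblast gate, *APOA1* moved from place 105 to place 2. A UMI of it was found in 96.5% of hypoblast-gate cells at D4 and 99.6% at D6, and after thinning every cell at random to the lower depth limit of kept cells in 86.3% and 98.8%. An antisense gene, *APOA1-AS*, overlaps it by 1506 bases and had 0.669 CPM at D4 and 1.82 CPM at D6, and how strand was counted is not given in the sources used here.

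*APOA2*, encoding the second protein of high-density lipoprotein, stood in the hypoblast gate at 423 CPM [417, 428] on D4 and 1174 [1164, 1185] on D6, against 5.71 [5.11, 6.36] and 10.2 [9.49, 10.9] in the embryonic gate. Its log2 ratio between gates, 6.21 [6.05, 6.37] at D4, overlapped that of *APOA1*, and at D6 it was 6.85 [6.75, 6.95]. *APOA4*, an apolipoprotein known mainly from intestinal chylomicrons, was near the bottom of the set at D4, with 271 UMIs or 5.67 CPM [5.01, 6.38] in the hypoblast gate. At D6 it stood at 137 CPM [134, 141] and had a UMI in 40.1% of cells, against 5.47% at D4. The embryonic gate held 3 of its UMIs at D4 and 78 at D6.

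*APOM*, which encodes a carrier of sphingosine-1-phosphate, was the exception at D4. Its level was 4.41 CPM [3.84, 5.05] in the hypoblast gate and 5.21 [4.64, 5.83] in the embryonic gate, a log2 ratio of −0.24 [−0.50, 0.02]. At D6 the levels were 31.6 CPM [29.9, 33.4] and 7.30 [6.70, 7.93], a log2 ratio of 2.12 [1.97, 2.26]. *APOM* overlaps *BAG6* by 258 bases on chromosome 6, where *BAG6* itself had 57.1 CPM at D4 and 54.7 CPM at D6 in the hypoblast gate.

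*APOE*, the ligand through which particles are taken up by cell-surface receptors, was the most abundant member at D4 in every gate. Its hypoblast-gate levels were 5559 CPM [5538, 5580] and 8741 [8713, 8769], and the embryonic-gate levels 959 [951, 967] and 1107 [1099, 1114]. Its log2 ratios between gates, 2.54 [2.52, 2.55] and 2.98 [2.97, 2.99], lay far below those of *APOA1*, as the embryonic gate was itself high in *APOE*. *APOC1*, an inhibitor of lipoprotein uptake and its neighbour on chromosome 19, was at 1281 CPM [1271, 1292] and 2473 [2458, 2488] in the hypoblast gate, and at 139 [136, 142] and 142 [140, 145] in the embryonic gate. A pseudogene, *APOC1P1*, lies 7456 bases downstream. Its likeness to *APOC1* was not measured, and how reads that match both were counted is not known here. *APOC3*, an inhibitor of lipoprotein lipase, was barely present at D4, with 24 UMIs or 0.502 CPM [0.321, 0.747] in the hypoblast gate. At D6 it was at 20.3 CPM [18.9, 21.7], and 13.0% of cells had a UMI. A single cell held 81 of the 846 UMIs of *APOC3* at D6.

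*APOB*, the scaffold of very-low-density lipoprotein and chylomicrons, was higher at D4, with 106 CPM [103, 109] in the hypoblast gate, than at D6, with 79.3 [76.6, 82.0], and had a UMI in 48.7% and 39.8% of cells. The embryonic gate held 1.32 CPM [1.04, 1.65] and 1.18 [0.943, 1.45], giving log2 ratios of 6.34 [6.01, 6.68] and 6.07 [5.77, 6.40]. *MTTP*, whose product APOB needs for its lipid, was at 1.40 CPM [1.09, 1.78] in the hypoblast gate at D4, from 67 UMIs, against 0.519 [0.350, 0.741] in the embryonic gate. At D6 it was at 12.1 [11.1, 13.2], from 505 UMIs, against 0.468 [0.326, 0.650]. At D4, when *APOB* was the higher, 1.43% of cells had an *MTTP* UMI, and at D6 9.20% had.

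The levels of the hypoblast gate ran, from high to low at D4, *APOE*, *APOA1*, *APOC1*, *APOA2*, *APOB*, *APOA4*, *APOM*, *MTTP* and *APOC3*, where the counting intervals of *APOA4* and *APOM* overlapped. At D6 the order was *APOA1*, *APOE*, *APOC1*, *APOA2*, *APOA4*, *APOB*, *APOM*, *APOC3* and *MTTP*, with no neighbours overlapping. The members together took 9002 CPM of the hypoblast gate at D4 and 24595 CPM at D6, and 1132 and 1359 CPM of the embryonic gate. Within this sum *APOE* held 61.8% at D4 and 35.5% at D6, and *APOA1* 18.0% and 48.5%. Cells in neither gate lay between, and their *APOA1* levels were 714 and 5000 CPM.

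The second comparison asks how the members changed from D4 to D6. In the hypoblast gate 6 of 9 were at least 2-fold higher at D6, against 6.11% of all genes, and none was at least 2-fold lower, against 5.55%. The log2 ratio was 5.33 [4.75, 5.98] for *APOC3*, 4.60 [4.42, 4.78] for *APOA4*, 3.11 [2.74, 3.50] for *MTTP*, 2.88 [2.87, 2.89] for *APOA1*, 2.84 [2.63, 3.06] for *APOM* and 1.47 [1.45, 1.50] for *APOA2*. The 3 others were within 2-fold, with *APOC1* at 0.95 [0.93, 0.96], *APOE* at 0.65 [0.65, 0.66] and *APOB* at −0.42 [−0.49, −0.36]. *APOB* was the only member lower at D6 in this gate, and it was so under every setting tried. The median over members was 2.84, and over all genes −0.01.

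**Figure D2:**
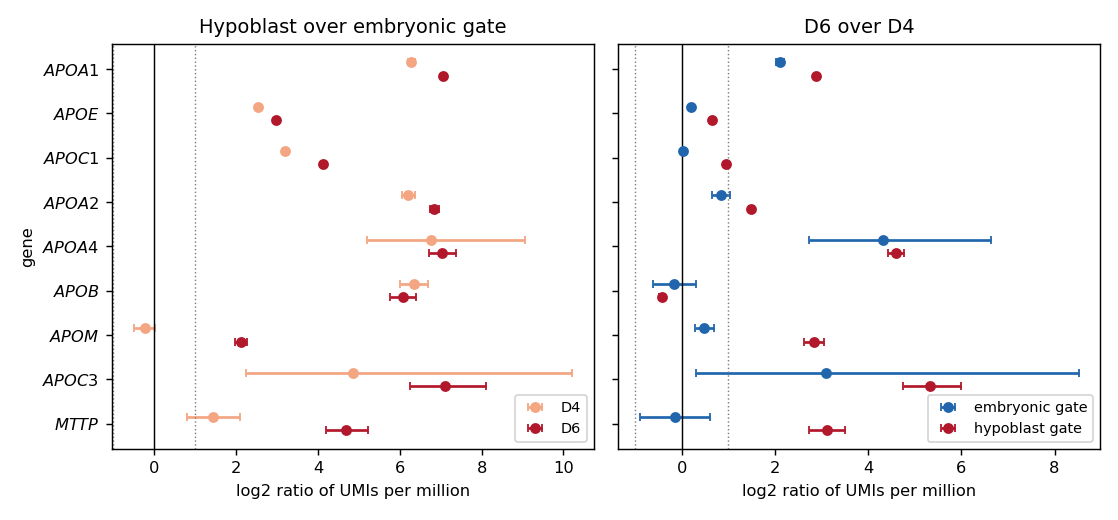
Log2 ratios of the 9 members with 95% counting intervals for the comparison of gates on each day and of days in each gate, with lines at 2-fold. *APOB* lies below 0 between days in the hypoblast gate at −0.42, and *APOM* crosses 0 between gates at D4.

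In the embryonic gate 3 of 9 were at least 2-fold higher at D6, against 4.78% of all genes, and none was at least 2-fold lower, against 1.93%. The 3 were *APOA1* with a log2 ratio of 2.11 [2.02, 2.20], *APOA4* with 4.33 [2.73, 6.64] and *APOC3* with 3.09 [0.30, 8.51], the last from 1 UMI at D4 and 11 at D6. *APOE* differed by 0.21 [0.19, 0.22] and *APOC1* by 0.03 [−0.01, 0.07]. For *APOM* the ratio was 0.49 [0.28, 0.69]. The log2 ratio between days was higher in the hypoblast gate than in the embryonic gate by 0.77 [0.68, 0.86] for *APOA1*, 0.92 [0.87, 0.96] for *APOC1* and 2.36 [2.06, 2.65] for *APOM*. For *APOA4*, 0.27 [−1.40, 1.94], and *APOB*, −0.26 [−0.71, 0.18], that difference had an interval that included 0. *APOA1*, *APOA4* and *APOC3* in the embryonic gate at D6 stood at 0.752%, 0.760% and 0.726% of their hypoblast-gate level in the same library, so neither the count of 3 nor these differences is given as a change of expression in embryonic cells.

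The low levels of the embryonic gate were set against those of the hypoblast gate of the same library. *APOA1*, *APOA2*, *APOA4* and *APOB* at D4 stood at 1.28%, 1.35%, 0.916% and 1.24% of their hypoblast-gate level, and at D6 at 0.752%, 0.868%, 0.760% and 1.48%. Among 8380 genes with at least 500 UMIs in the hypoblast gate at D4 and 7970 at D6, the lowest such percentage was 0.831% (*TFF1*) and 0.392% (*TTR*) and the median 96.4% and 96.1%. Levels this low are not read here as expression, and their source was not tested. *APOC1* at 10.9% and 5.76% and *APOE* at 17.2% and 12.7% lay above them, and after thinning *APOE* had a UMI in 94.6% of embryonic-gate cells at D4 and 95.7% at D6, and *APOC1* in 37.5% and 37.3%. *APOM* stood at 118% at D4 and 23.1% at D6, and *MTTP* at 37.1%, from 30 UMIs, and 3.87%. The *APOA1* UMIs of the embryonic gate were unevenly spread: 13 cells (0.350%) with at least 10 of them held 25.2% at D4, and 29 cells (0.574%) held 27.2% at D6.

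**Figure D3:**
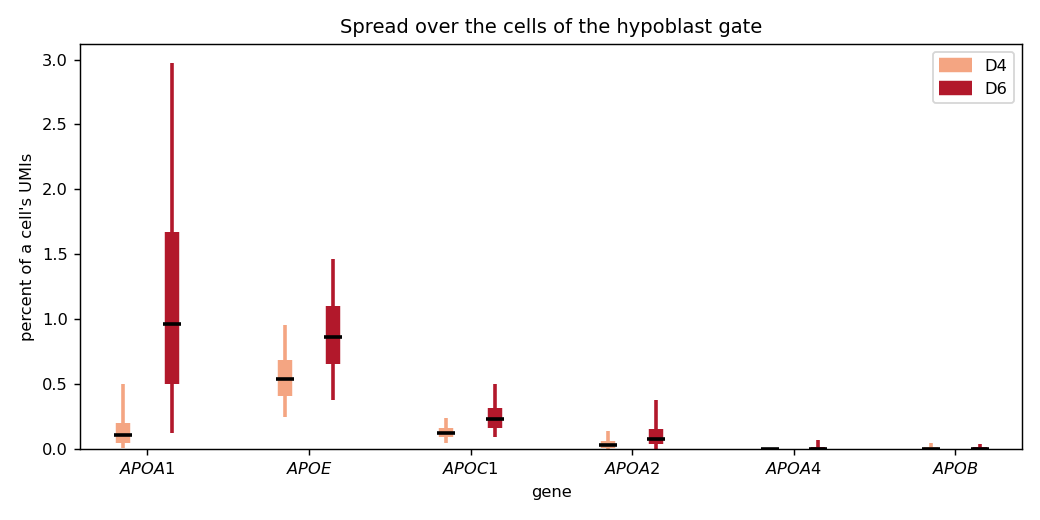
Share of a cell's UMIs taken by a member in the hypoblast gate at D4 and D6, as the median (black mark), the 25th to 75th percentile (bar) and the 5th to 95th (line) over cells, for the 6 members of highest level. The *APOA1* median is 0.103% of a cell's UMIs at D4 and 0.963% at D6, and that of *APOE* 0.535% and 0.863%.

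Within the hypoblast gate the members differed in the share of their UMIs held by the 10% of cells highest in each. *APOE* had the lowest share of the 9, 20.5% at D4 and 19.9% at D6, and *APOC1* followed with 21.2% and 22.0%. For *APOA1* this share was 39.2% at D4 and 29.2% at D6, for *APOA2* 37.8% and 38.4%, and for *APOB* 49.0% and 54.8%. Of the members seen in at least 39.8% of cells, *APOA4* at D6 had the highest share, with 69.5%. The share depends on level and does not rank evenness. At D4 it was 100% for the sparse *APOA4*, *APOC3*, *APOM* and *MTTP*. By the ratio of variance to mean of thinned counts, *APOC1* (1.65 at D4 and 3.03 at D6) was lower than *APOE* (3.63 and 4.89). Its thinned mean was also lower, 4.42 and 8.74 against 19.2 and 30.4. This ratio depends on level as well, so it does not rank the evenness of the 2 genes. A cell at the median gave *APOA1* 0.103% of its UMIs at D4 and 0.963% at D6, and from the 5th to the 95th percentile the share ran from 0.00906% to 0.501% and from 0.122% to 2.97%. The ranges therefore overlapped, and the cell highest in *APOA1* at D6 held 877 of its UMIs.

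Some of the members seen in few cells were seen in the same cells. At D6, after the same thinning, 165 hypoblast-gate cells had an *APOC3* UMI. Of them 50.9% [43.0, 58.8] had *APOA4*, its neighbour on chromosome 11, against 20.3% of the remaining cells. Members on other chromosomes were also seen more often in these 165 cells. *MTTP* was found in 13.9% of them against 3.38%, and *APOM* in 21.8% against 8.55%. Of 138 cells with an *MTTP* UMI, 42.8% [34.4, 51.5] had *APOB* against 19.0% of the others, 42.8% had *APOA4* against 20.9%, and 26.8% had *APOM* against 8.46%. These are shares of cells of 1 library and carry no test.

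Cells of the hypoblast gate were then binned by their thinned *APOA1* count. Cells with 30 or more UMIs made up 1.45% of the gate at D4 and 55.0% at D6, and cells with 0 made up 13.7% and 1.23%. At D6 *APOE* was at 2717 CPM in the 44 cells without *APOA1*, 5051 in cells with 1 to 2 UMIs and 9815 in cells with 30 or more. *APOC1* was at 729, 1387 and 2798 CPM in these bins and *APOA2* at 166, 302 and 1553. Of the 44 cells 40.9% had a thinned UMI of the mesoderm gene *HAND1*, against 12.0% of those with 1 to 2 *APOA1* UMIs. The sparse members were also highest in the top bin at D6: *APOA4* was at 8.45 CPM in cells with 3 to 9 *APOA1* UMIs, 32.1 with 10 to 29 and 229 with 30 or more, *APOM* at 5.92, 17.7 and 46.4, and *MTTP* at 6.76, 4.88 and 21.3. The upper 2 of these bins held 31.8% and 55.0% of the cells. At D4 *APOM* was at 4.70, 4.96, 6.84 and 4.58 CPM over the lower 4 bins, with no order. In the top bin of 59 cells it was at 19.8 CPM [5.39, 50.6], from 4 thinned UMIs, and this interval overlapped those of the lower bins. *APOB* was at 6.63 CPM [0.168, 36.9] in the D6 cells without *APOA1*, from 1 thinned UMI, and at 77.3, 83.7, 70.4 and 96.9 CPM over the upper 4 bins, where the first 3 had overlapping intervals. At D4 *APOB* ran from 57.0 CPM in cells without *APOA1* over 92.2, 124 and 124 to 79.1 [45.2, 128] in the 59 cells with 30 or more.

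**Figure D4:**
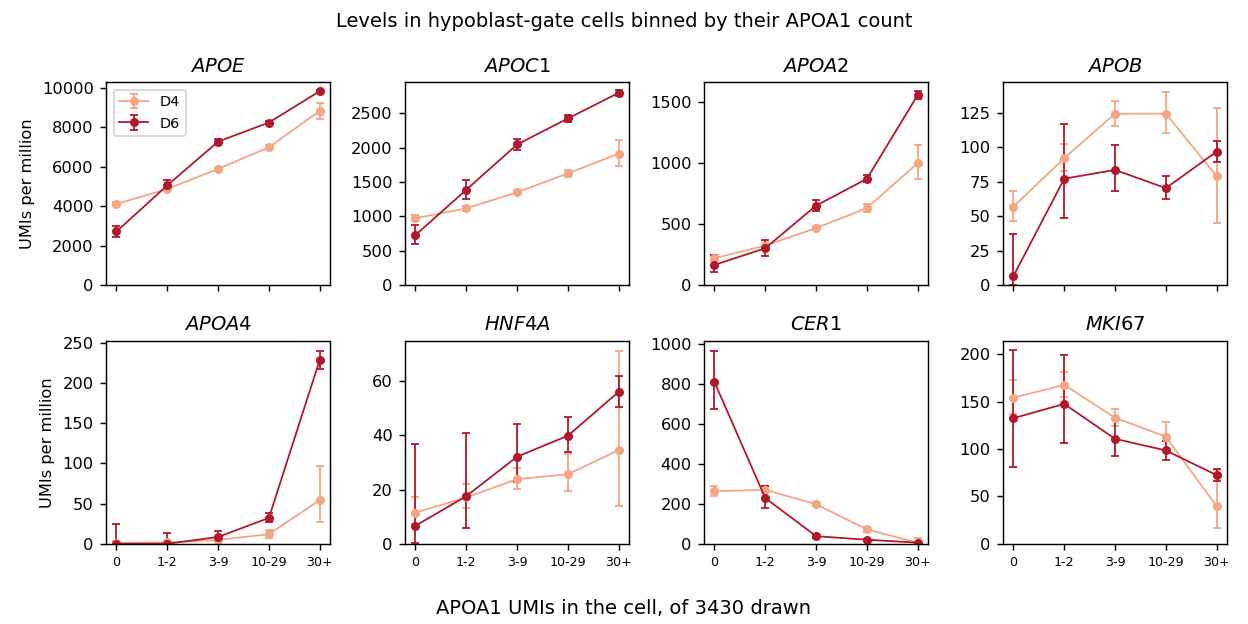
Level of *APOE*, *APOC1*, *APOA2*, *APOB*, *APOA4*, *HNF4A*, *CER1* and *MKI67* (CPM, linear axes from 0, with 95% counting intervals) in hypoblast-gate cells binned by thinned *APOA1* UMIs at D4 and D6. *APOA4* reaches 229 CPM in the top bin at D6, while *APOB* stays between 70.4 and 96.9 CPM in the upper 4.

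Other genes moved with these bins. *HNF4A*, encoding a nuclear receptor known to bind apolipoprotein promoters, was at 6.63 CPM [0.168, 36.9] in D6 cells without *APOA1*, from 1 thinned UMI. In those with 30 or more it was at 56.0 CPM. Split directly into 1368 D6 cells with an *HNF4A* UMI and 2199 without, 0 of 9 members were at least 2-fold higher, against 1.47% of all genes. The log2 ratios ran from −0.03 for *APOC1* to 0.92 for *MTTP*, with 0.34 for *APOA1*. Other transcription factors are not given by bin here. *CER1*, encoding a secreted antagonist of NODAL and BMP made by the anterior visceral endoderm, fell from 808 CPM in cells without *APOA1* to 5.65 in the top bin. *HAND1*, a mesoderm gene, was at 424 CPM in the 44 cells without *APOA1* and 0.743 in the top bin. *MKI67*, a gene of cycling cells, was at 133 [80.9, 205] and 72.4 [66.1, 79.1]. The other cycling markers went both ways. *TOP2A* (179 and 134 CPM) and *PCNA* (99.4 and 81.5) were lower in the top bin, and *CCNB1* (79.5 and 116) and *MCM5* (26.5 and 45.5) higher. For each of these other markers the intervals of the bins overlapped. Removing the 36 cells with at least 3 *HAND1* UMIs at D6 and the 3 at D4 left the log2 ratio of *APOA1* between days at 2.90. In those 36 cells *APOA1* was at 1400 CPM and *APOE* at 2346, against 12134 and 8847 in cells without *HAND1*, and *APOC3* and *MTTP* had 0 UMIs, which allows a log2 ratio of at most −1.66 and −0.91.

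Sub-states of the hypoblast gate were compared by single marker genes at D6, as cells with the marker against cells with none, so that they overlap. In the 83 cells with a UMI of *AFP*, the alpha-fetoprotein gene of yolk sac endoderm, 6 of 9 members were at least 2-fold higher, against 9.53% of all genes. *MTTP* was at 76.8 CPM there against 10.5 elsewhere, a log2 ratio of 2.87 [2.50, 3.22]. *APOM* was at 115 against 29.6, *APOA4* at 436 against 130, *APOA2* at 2978 against 1130 and *APOB* at 208 against 76.1. *APOC3* had a log2 ratio of 1.29 [0.84, 1.71]. The other 3 had log2 ratios of 0.94 [0.92, 0.96] for *APOA1*, 0.25 [0.22, 0.28] for *APOE* and 0.01 [−0.05, 0.06] for *APOC1*. In the 227 cells with a UMI of *TTR*, which encodes a carrier of thyroid hormone and retinol, *MTTP* (43.0 against 10.1 CPM), *APOC3* (68.5 against 17.1) and *APOB* (178 against 72.8) were highest relative to the rest, while *APOC1* had a log2 ratio of −0.29 [−0.33, −0.25]. In the 1000 cells with at least 3 UMIs of *LCN15*, *APOC3* was at 36.8 CPM against 10.9 and *APOB* at 115 against 58.6. The median depth of these cells (11362, 10638 and 10469.5 UMIs) was near that of the cells they were set against (10887.5, 10937 and 11184).

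**Figure D5:**
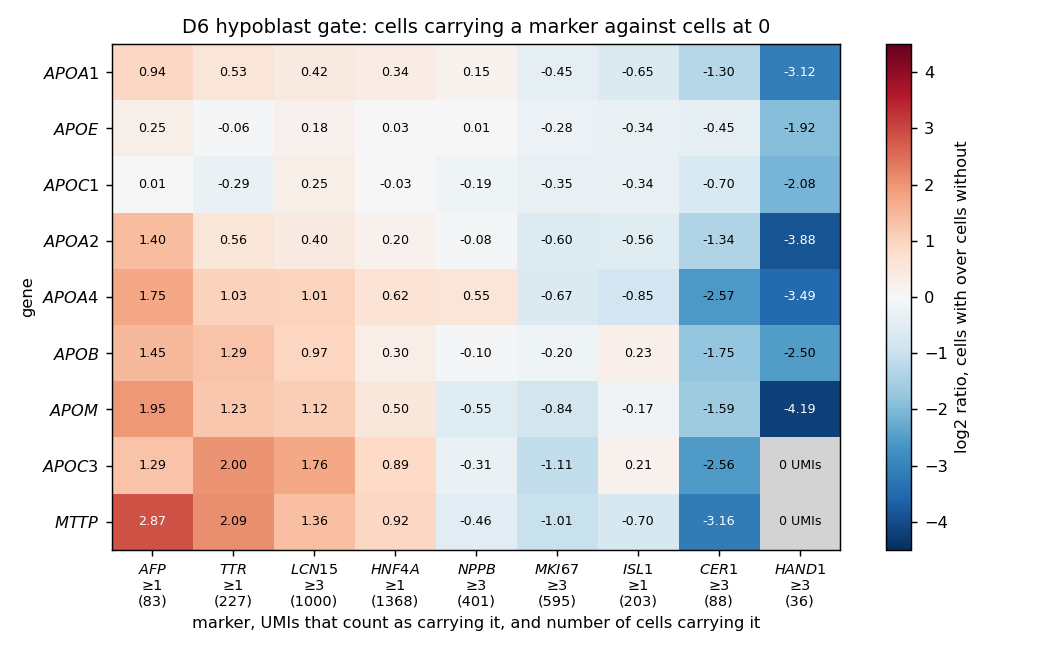
Log2 ratio of each member between hypoblast-gate cells with and without a marker gene at D6, as a heat map with the value in each field and the number of cells with the marker below it. Cells with *AFP* or *TTR* are high in *MTTP*, *APOC3*, *APOB*, *APOM* and *APOA4*, and the cells with *CER1* or *HAND1* are low in the members they hold.

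*CER1* cells went the other way at D6: 7 of 9 members were at least 2-fold lower in the 88 cells with at least 3 *CER1* UMIs, against 6.95% of all genes, and *APOC1* and *APOE* were lower by less. *APOA1* was at 5010 CPM in them against 12321, *APOA4* at 23.9 against 142 and *APOB* at 24.6 against 82.6, and *APOE* showed the smallest difference, with 6498 against 8866. Their *MTTP* count was 2 UMIs. At D4, in 427 such cells, *APOA1* had a log2 ratio of −0.61 [−0.65, −0.57] and *APOB* −0.63 [−0.78, −0.49], while *APOA2*, at −0.00 [−0.06, 0.06], *APOE*, at −0.02 [−0.04, −0.00], and *APOC1*, at −0.06 [−0.10, −0.02], lay near 0. Their median depth was 15131.5 UMIs at D6 against 10788. The paper also expects CER1 protein in T-positive cells as mesoderm matures. Among D6 cells without *APOA1*, 34.1% had a thinned *CER1* UMI and 40.9% one of *HAND1*. How many of the 88 *CER1* cells also held *HAND1* was not counted. In the 595 D6 cells with at least 3 *MKI67* UMIs 2 of 9, *APOC3* and *MTTP*, were at least 2-fold lower, against 3.29% of all genes, and the 9 log2 ratios ran from −0.20 for *APOB* to −1.11 for *APOC3*. In the 1113 such cells at D4 the log2 ratio was −0.38 [−0.41, −0.36] for *APOA1*, −0.24 for *APOC1* and −0.19 for *APOE*, but 0.41 [0.32, 0.51] for *APOB*. Their median depth was 14479 UMIs at D6 against 10067 and 14001 at D4 against 9783. The cycling markers as a list were lower at D6 than at D4 in the hypoblast gate, with a median log2 ratio of −0.60 and none past 2-fold, and the median mitochondrial share of its cells was 3.75% at D4 and 2.10% at D6. Their part in the difference between days was not tested. The 4 mesoderm markers *MIXL1*, *HAND1*, *MESP1* and *TBXT* summed to 33.3 CPM at D4 and 104 CPM at D6.

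Over single cells, the genes most like *APOA1* were named by Pearson's r of log thinned counts, over 4061 cells at D4 and 3567 at D6, among the 2423 and 2488 other genes with a UMI in at least 20% of thinned cells. *APOC3*, *APOM* and *MTTP* on both days, *APOA4* at D4 and *APOB* at D6 were under that limit and were not compared. The cells share a library, and the values are a description. At D6 the 10 genes nearest were *APOE* (0.47), *S100A10* (0.45), *SERPINE2* (0.41), *HMOX1* (0.41), *RSPO3* (0.38), *APOA4* (0.37), *APOA2* (0.37), *CDKN1C* (0.35), *S100A11* (0.34) and *APOC1* (0.32). At D4 they were *S100A10* (0.53), *APOE* (0.42), *FST* (0.37), *FTH1* (0.35), *S100A13* (0.31), *S100A11* (0.30), *CKB* (0.30), *SLC3A2* (0.29), *APOC1* (0.28) and *NPC2* (0.28). *APOA2* came at place 12 at D4, and *APOB* at place 72 with 0.11.

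Other genes of lipoprotein metabolism were counted by list. For every list below, 6.11% of all genes were at least 2-fold higher at D6 in the hypoblast gate and 5.55% lower. Between gates 15.1% of all genes at D4 and 14.7% at D6 were at least 2-fold higher in the hypoblast gate. Among lipoprotein assembly and secretion genes, 4 of 21 were at least 2-fold higher at D6 in the hypoblast gate and 0 lower. These were *PRAP1*, whose product binds MTTP, from 3.45 to 21.4 CPM, *CIDEB*, which acts in the lipidation of APOB particles, from 2.22 to 7.09, *A1CF*, encoding a cofactor of APOB mRNA editing, from 2.32 to 6.85, and *SOAT2*, which esterifies cholesterol, from 0.732 to 1.84. General secretory genes such as *P4HB*, encoding the small subunit that pairs with MTTP, at 263 CPM and *SURF4* at 108 CPM at D6 were within 2-fold between days. The median log2 ratio of this list between days was 0.15, against −0.01 over all genes. Between gates 7 of 21 at D4 and 8 of 21 at D6 were at least 2-fold higher in the hypoblast gate. The editing enzyme gene *APOBEC1* had 0 UMIs in the hypoblast gate at D4, which allows up to 0.0627 CPM, and 1 at D6.

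Of 13 lipoprotein receptors with enough UMIs, *LRP2* from 4.91 to 20.1 CPM, *CUBN* from 1.69 to 11.3 and *AMN* from 3.95 to 16.6, which encode megalin, cubilin and amnionless of the apical endocytic complex that takes up APOA1, were at least 2-fold higher at D6 in the hypoblast gate, and none was lower. These 3 and *DAB2*, an endocytic adaptor, were the receptors at least 2-fold higher in the hypoblast than in the embryonic gate on both days, and *SORL1* was lower at D6, with a log2 ratio of −1.18. The list's median log2 ratio between days was −0.01. Of 7 remodelling genes, *LIPG* (log2 ratio 1.20) and *LCAT* (1.15), which encode an endothelial lipase and the enzyme that APOA1 activates, were at least 2-fold higher. The sterol exporters *ABCG8* (−1.46) and *ABCG1*, with 18 UMIs at D4 and 0 at D6, were at least 2-fold lower. *PLTP*, the phospholipid transfer protein gene, was at 62.6 and 97.1 CPM.

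Among the other apolipoproteins, 4 of 8 were at least 2-fold higher at D6 in the hypoblast gate, namely *APOC2* (log2 ratio 3.20), *APOA5* (2.52), *APOC4* (1.55) and *APOL2* (1.38), and none was lower. Their median was 0.82. *APOA5* lies 28279 bases from *APOA4* in the chromosome 11 cluster, and *APOC4* and *APOC2* lie beyond *APOC1P1* on chromosome 19. Transcription factors that textbooks tie to apolipoprotein genes were high in the hypoblast gate, 14 of 23 at D4 and 14 of 22 at D6 by at least 2-fold. Between days 4 of 23 were at least 2-fold higher in it, *GATA6* from 121 to 297 CPM, *HNF4A* from 21.2 to 45.9, *PPARG* from 1.65 to 5.75 and *CREB3L3* from 0.167 to 1.29, and *NR2F2* (log2 ratio −1.06) and *NR0B2* (−1.74) were lower. Their median between days was 0.25. *FOXA2* at 145 CPM, *FOXA3* at 91.5 and *GATA4* at 88.0 were within 2-fold between days.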

How the data were processed

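Single-cell RNA-seq of hEEs was read from the deposited gene by cell matrices, which hold raw UMI counts that the authors made with Cell Ranger (version 6.0.1 in the matrix header) against hg38. Per the labels, Seurat 4.0.1 and R 4.0.3 were used downstream. The D4 matrix held 10943 cells with 151712246 UMIs and the D6 matrix 11483 cells with 150320228. Cells with 3430 to 27500 UMIs and at most 10% mitochondrial UMIs were kept, 9151 and 10097. No doublet caller was run. Counts were summed over gated cells. Intervals were exact Poisson for levels, exact conditional binomial for ratios and Clopper-Pearson for shares. Those for differences of day ratios between gates used a normal approximation, which is rough where a gate held few UMIs, as for *APOA4*. A gene counted as higher or lower past 2-fold, with 0.5 counts added, among genes with at least 10 UMIs over both groups. Ratio intervals were tested on simulated binomial counts, the model that the intervals assume. The simulation held no spread between cells, so it could not show whether the intervals are wide enough for these data. Python 3.11.15, numpy 2.4.6, scipy 1.17.1, pandas 2.3.3 and matplotlib 3.10.9 were used. Members, gates and gene lists were chosen with earlier results of these data known. Named were the members, from each list up to 8 genes highest in the hypoblast gate at D6 and those behind small counts, and the 10 genes nearest to *APOA1*. Promoters and positions came from RefSeq tables of GRCh38.p14. Marker genes split cells at 1 or 3 UMIs against 0. Alternatives changed the cell filter, the gates, the thinning, the denominator and the fold. The 7 bisulfite libraries were not analysed here. Some genes of these lists are not reported here.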

Additional observations from a re-analysis of the deposited data

Results flagged for a closer look

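*MTTP* was higher at D6 than at D4 in the hypoblast gate, by 3.11 [2.74, 3.50] on the log2 scale. In the embryonic gate the value was −0.15 [−0.90, 0.60]. The opposite signs of the 2 gates put it forward. The ratio was higher in the hypoblast gate by 3.26 [2.47, 4.05]. The difference was not tested, since each gate had 1 library per day. The embryonic value rested on 30 UMIs at D4 and 35 at D6, and its sign changed with the processing, from −0.32 as the mean of single-cell levels to 0.82 on thinned counts.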

How the results depend on the processing

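No paired analysis was possible because each day had 1 library and no test was run. At 2-fold, the count of members higher in the hypoblast gate was 8 of 9 at D4, or 7 with *SOX17* gates, and 9 at D6 under every alternative, and the count higher at D6 was 6 in the hypoblast gate and 3 in the embryonic gate, or 4 with gates on thinned counts. At 4-fold these counts were 7, 9, 5 and 3, against 7.64%, 7.78%, 1.68% and 0.523% of all genes. Of 388 log2 ratios of single members under an alternative, 272 stayed within the counting interval of the value given above, 116 moved out of it, and 0 changed sign where the interval lay on 1 side of 0. Those of *APOB*, *APOC1* and *MTTP* between days in the embryonic gate, whose intervals include 0, did change sign. Gates with *SOX17* in place of *FN1* lowered the ratio of *APOA1* between gates to 4.91 at D4 and 5.32 at D6, and stricter gates raised it to 7.17 and 7.58. *MTTP* between gates at D4 ran from 0.99 to 2.50, and *APOB* between days in the hypoblast gate from −0.60 to −0.31. The choices of leaving out cells with at least 3 *HAND1* UMIs and leaving out the cell highest in each member were made after seeing the data. Without its highest cell *APOC3* differed between days by 5.32. Depth limits the sparse members: with 0 UMIs of the hypoblast gate at D4, a level of up to 0.0627 CPM is possible.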
